A study of Mus musculus with 12 samples.

Results

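Oxidative phosphorylation is the process by which mitochondria turn the energy of electrons taken from food into ATP. Complexes I to IV pass these electrons to oxygen, and complexes I, III and IV pump protons across the inner membrane as they do so. Complex V, the ATP synthase, lets the protons flow back and makes ATP. The subunits are encoded in 2 places. A few core subunits are made from the small circular mitochondrial genome (mt genes), and all others are made from nuclear genes and imported. Complex II has only nuclear subunits. Neurons depend heavily on this process to restore ion gradients after firing.

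The genes described here are those of the ventral hippocampus (vHPC) tables whose symbols begin with Nduf, Cox followed by a digit, Atp5, Uqcr, Sdha to Sdhd, Cyc1, mt-Nd, mt-Co, mt-Atp or mt-Cytb. Symbols with "-ps" were left out. This gave 120 of 17564 genes, of which 107 were nuclear and 13 mitochondrial. The prefixes also took in genes that are not subunits: 20 assembly factors, the supercomplex factor Cox7a2l and the coupling factor Atp5s. Another 9 nuclear members were tissue isoforms or gene copies of a subunit, which left 76 nuclear genes for the usual subunits. The copies Ndufa11b, Ndufs6b and Cox6c2 were annotated as processed pseudogenes but lack "-ps" in the symbol. Of the 6 symbols left out, 5 were annotated as processed pseudogenes, while Ndufb1-ps was annotated as a noncoding RNA and had a mean of 5.35 log2 CPM.

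The tissue came from male mice on a C57BL/6 background that were WT or BDNF het-Met, the latter heterozygous in every cell for an allele that codes for methionine in the growth factor BDNF. From 2 months of age they took corticosterone (CORT, the main rodent stress hormone) by mouth at 25 mg/l in 1% ethanol for 6 weeks, or vehicle (VEH), which was 1% ethanol. There were 4 groups, CORT and VEH in WT and CORT and VEH in BDNF het-Met, with 3 libraries each and the RNA of 2 animals in each library. The value analysed is the authors' mean log2 CPM (CPM, counts per 1e6 reads counted) of each gene over the libraries of their fit. It was the same in the tables of both genotypes, so it pools genotypes and treatments; the sources used here do not list which of the 12 libraries entered it. The labels give a planned depth of about 35 to 40 M reads per library, and the number of reads counted is unknown. The pooled mean has no value per library and no error of its own, and effects of CORT or of genotype on these genes were not analysed here. All comparisons below are therefore between genes within the pooled tissue, with no test, and the replicate spread behind each level is unknown.

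Over all genes the mean ran from -2.42 to 13.82 log2 CPM, with a median of 3.87. Markers of the tissue were present: the median was 9.73 log2 CPM for 6 neuronal genes, 8.94 for 5 oligodendrocyte genes, 8.11 for 6 astrocyte genes, 6.47 for 5 genes of the hippocampal fields, 5.46 for 5 microglial genes and 4.61 for 4 endothelial genes. Blood markers had a median of 3.18 over 5 genes. Of the 8 choroid plexus markers, Ttr stood at 9.44 and the others between 2.21 and 6.17. The levels below thus sum over cell types, and more cells of a type cannot be told apart from more RNA per cell.

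The mt genes held the top of the table. The authors' mean was highest of all genes for mt-Co1 (13.82 log2 CPM), the catalytic subunit of complex IV, followed by mt-Cytb (13.38), the cytochrome b of complex III, and mt-Nd1 (12.94), a core membrane subunit of complex I. In all, 6 of the 10 highest genes were mt members. When each mean was taken back to the linear scale and summed over all genes, the 13 mt members made up 5.44% of the sum and the 107 nuclear members 0.859%. Of the nuclear members, only Atp5b, the catalytic β subunit of the ATP synthase, was among the 100 highest genes, beside 7 mt members. The nuclear members were nevertheless common transcripts, since 84 of 107 exceeded the median of all genes.

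Longer transcripts give more reads, so genes were compared per length, as log2 CPM per kb of the principal transcript. On this scale the median was 11.97 for the 13 mt members, 6.24 for the 76 nuclear subunit genes, 3.13 for the 20 assembly factors and 1.79 for the 9 tissue isoforms and copies, beside 2.48 for all genes. The median mt member thus stood 5.72 log2 units above the median nuclear subunit gene, a gap of 3.41 between means, since the mt levels were split as described below. The median nuclear subunit gene stood 3.12 log2 units above the median assembly factor. In percentiles of all genes, these medians stood at 99.96, 95.8, 60.6 and 39.8.

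**Figure D1:**
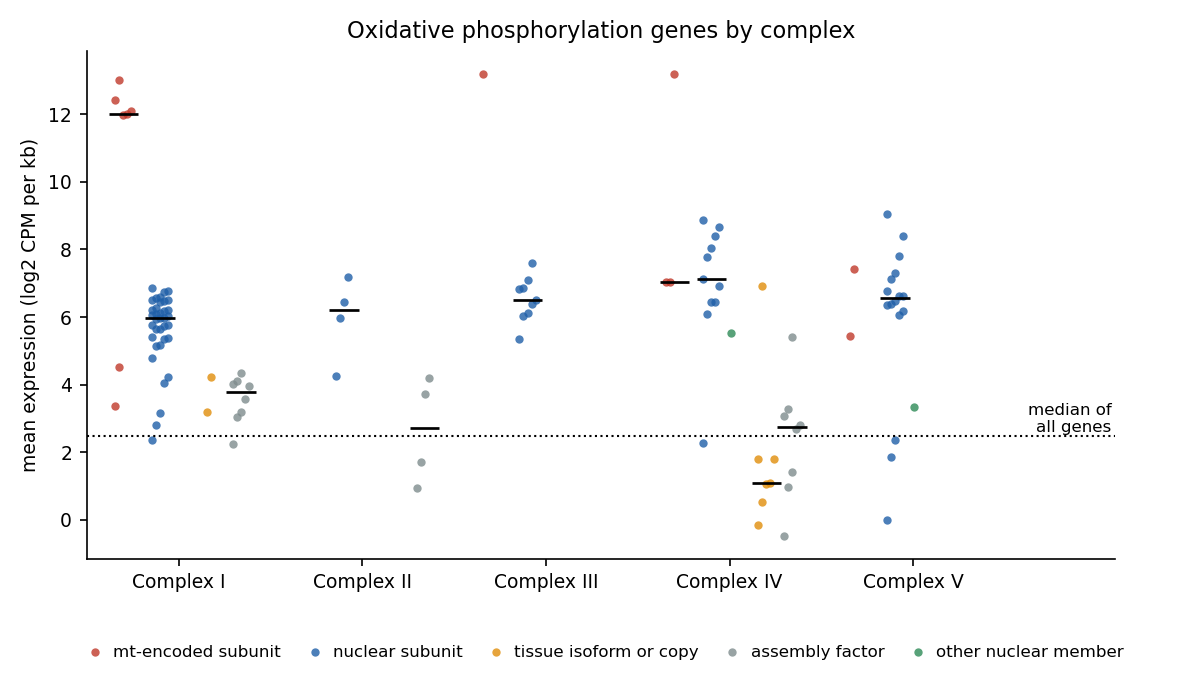
Mean expression of the 120 genes in log2 CPM per kb of principal transcript (y axis) by complex (x axis). Each point is 1 gene, coloured by kind; short black lines are medians of sets of 3 or more genes, and the dotted line is the median of all genes (2.48). Most nuclear subunit genes lie between 5 and 8, whereas the mt genes are split between levels near 12 to 13 and levels of 3.37 to 7.43.

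The 13 mt genes did not share one level. They fell into 7 genes between 11.97 and 13.19 log2 CPM per kb and 6 genes between 3.37 and 7.43, with none in between, and this split was noticed in the values. The high set was mt-Co1 and mt-Cytb (both 13.19), mt-Nd1 (13.00), mt-Nd2 (12.41), mt-Nd6 (12.08), mt-Nd5 (12.01) and mt-Nd4 (11.97). It held 99.4% of the summed mt level. Apart from mt-Co1 and mt-Cytb, all its members encode core subunits of complex I. Both mitochondrial ribosomal RNAs, which lie upstream of mt-Nd1, were close to this set (mt-Rnr1 11.64, mt-Rnr2 11.76).

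The low set was mt-Atp6 (7.43 log2 CPM per kb), mt-Co2 (7.05), mt-Co3 (7.02), mt-Atp8 (5.45), mt-Nd4l (4.52) and mt-Nd3 (3.37). These are the proton channel subunit of the ATP synthase and its small partner, the other core subunits of complex IV, and 2 small membrane subunits of complex I. Within complex IV, mt-Co1 stood 70.7-fold above mt-Co2 and 71.9-fold above mt-Co3, although each complex holds 1 copy of each. Within complex I, mt-Nd4 stood 174-fold above its neighbour mt-Nd4l. These folds are uncertain, because mt-Co2, mt-Co3 and mt-Nd4l each have a nuclear copy with no differing base over the aligned length, as described below.

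The low genes were neighbours. On mitochondrial chromosome M of GRCm38 all 6 start between mt-Co1, which ends at base 6872, and mt-Nd4, which starts at base 10167. Only mt-Nd4l reaches into mt-Nd4, by 7 bases. The order there is mt-Co2 (7013 to 7696), mt-Atp8 (7766 to 7969), mt-Atp6 (7927 to 8607), mt-Co3 (8607 to 9390), mt-Nd3 (9459 to 9806) and mt-Nd4l (9877 to 10173), all on the plus strand. All mt genes are single-exon genes, and the coordinates cover the whole annotated transcript.

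This stretch of the mitochondrial genome also exists in the nucleus. GENCODE M21 lists 7 unprocessed copies of mt genes side by side on the minus strand of chromosome 1 between bases 24611535 and 24616197, a span of 4663 bases with no other annotated gene. The copies of mt-Co2 (Gm28661), mt-Atp6 (Gm10925) and mt-Co3 (Gm28437) had no differing base over 681, 678 and 783 aligned bases. The first 60 bases of mt-Co2 (chrM:7013-7072, plus strand) and of Gm28661 (chr1:24615506-24615565, minus strand) are shown because a read from one cannot be told from a read of the other. Both are in lower case 5′ to 3′, where a capital would mark a differing base.
mt-Co2: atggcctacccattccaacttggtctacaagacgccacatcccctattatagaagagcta
Gm28661: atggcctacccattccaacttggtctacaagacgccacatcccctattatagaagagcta
The high gene mt-Co1 has a partial copy in the same stretch of chromosome 1, Gm29216, with 6 differing bases over 492 aligned bases. It also has a full-length copy, Gm13340 on chromosome 2, which has diverged at 37 of 1545 bases. The 60-base window with the most differences from Gm13340 (chrM:5787-5846, plus strand, and chr2:22589129-22589188, minus strand) is shown for contrast, with the 4 differing bases in capitals.
mt-Co1: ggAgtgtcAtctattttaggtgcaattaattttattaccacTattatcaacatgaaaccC
Gm13340: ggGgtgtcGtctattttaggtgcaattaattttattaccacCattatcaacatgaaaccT

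For each gene, the share of its distinct 75-base stretches (the read length) that also occur without a mismatch in an annotated transcript of a gene elsewhere was counted. The share was 99.9% for mt-Co3, 99.5% for mt-Co2 and mt-Atp6, 98.7% for mt-Nd4l and 97.8% for mt-Nd3. It was 0% for mt-Nd1, mt-Nd6 and mt-Cytb, 1.66% for mt-Nd5, 5.71% for mt-Nd2 and 39.8% for mt-Co1. The 5 mt genes with over 90% of stretches shared were thus all in the low set.

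In a pair of other genes, share and level matched less closely. With 61.5% of its stretches shared with Gm28439, mt-Nd4 was in the high set (11.97 log2 CPM per kb), with 502 of its 1304 stretches its own. With only its own stretches as length, mt-Nd4 stood at 13.42 log2 CPM per kb, and mt-Co1 on the same scale at 13.99. In contrast, mt-Atp8 shared no stretch with an annotated gene and was in the low set (5.45). This gene has 204 bases, of which 43 overlap mt-Atp6. The 233 bases between Gm10925 and Gm28661, the copies of its neighbours, hold no annotated gene. A copy without annotation would not be counted in these shares, and the nuclear genome sequence was not used here. Across the 13 mt genes, share and level had a Spearman rho of -0.53 and a Pearson r of -0.69. These describe genes that share a genome and, apart from mt-Nd6, a strand, so the genes are not independent.

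The copies themselves were in the table at levels close to the low mt genes. The authors' mean was 5.77 log2 CPM for Gm28661 beside 6.50 for mt-Co2, 6.08 for Gm28437 beside 6.67 for mt-Co3, 6.32 for Gm10925 beside 6.88 for mt-Atp6, and 2.47 for Gm10222 beside 2.77 for mt-Nd4l. For mt-Nd3 the copy was higher (Gm28438, 3.50, against 1.85). Where the mt gene had stretches of its own, the copy was far lower: Gm28439 stood at 5.25 beside 12.43 for mt-Nd4, and Gm29216 at 6.90 beside 13.82 for mt-Co1. How the authors' counting treated reads that match several places is not given in the sources used here, and its part in the levels was not tested. The levels of mt-Co2, mt-Co3, mt-Atp6, mt-Nd3 and mt-Nd4l are therefore uncertain.

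**Figure D2:**
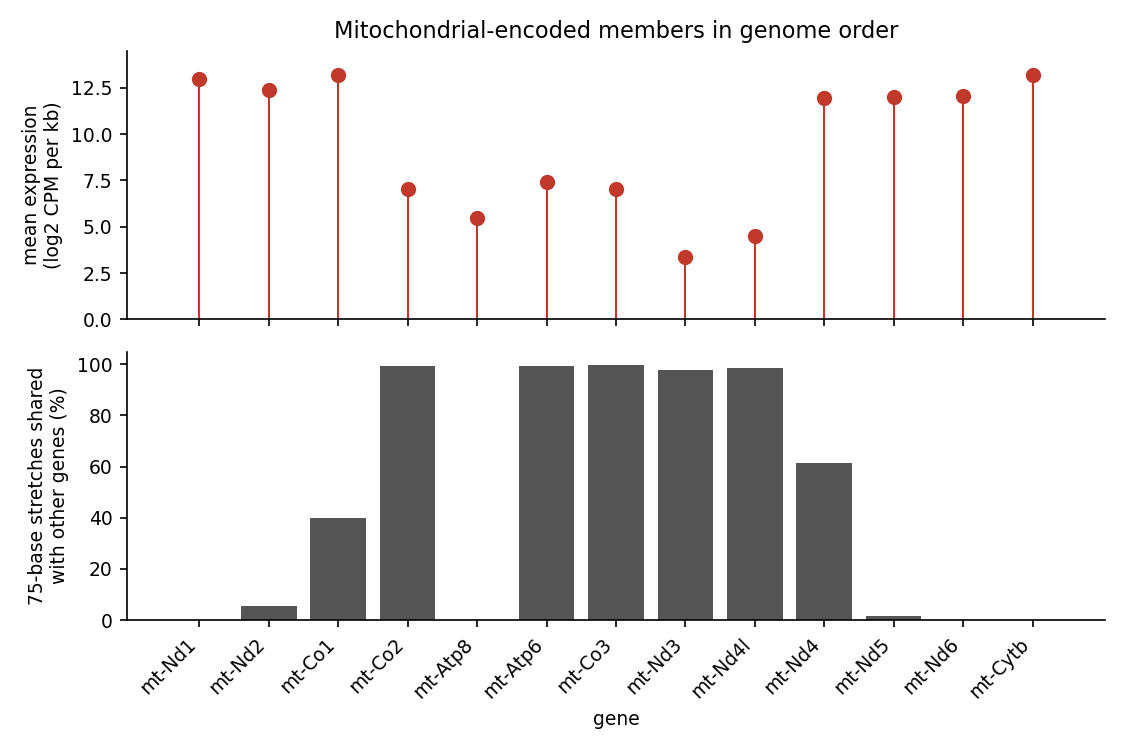
The 13 mt genes in their order along the mitochondrial genome (x axis), with mean expression in log2 CPM per kb (upper panel) and the percent of 75-base stretches that also occur in genes elsewhere (lower panel). The 6 genes from mt-Co2 to mt-Nd4l are low, and 5 of them have over 97% of stretches shared. The low mt-Atp8 has 0% shared, and the high mt-Nd4 (level 11.97) is shared in part (61.5%).

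One high gene needs a further limit. Only mt-Nd6 lies on the minus strand of the mitochondrial genome, whose plus strand carries the other 12 members. It stood at 12.08 log2 CPM per kb beside 12.01 for its neighbour mt-Nd5. The library kit kept the strand, but whether the counting used it is not given in the sources used here, so reads of mt-Nd6 and of RNA from the opposite strand cannot be told apart.

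Among the nuclear genes the levels were more even: 59 of the 76 subunit genes lay between 5 and 8 log2 CPM per kb. The median was 7.12 for 11 genes of complex IV, 6.55 for 16 of complex V, 6.50 for 9 of complex III, 6.20 for 4 of complex II and 5.97 for 36 of complex I. Complex I ranked last under each of 9 alternative lengths, summaries and member sets, and complex IV first under 8 of them. The alternatives without members of over 50% shared sequence, with or without overlapping genes counted, held the same subunit genes. With tissue isoforms and copies included, the complex IV median was 6.44 over 18 genes, below complexes V and III.

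Complex I, NADH dehydrogenase, has the most subunits. Among its nuclear core subunits, some of which carry the flavin and the iron-sulfur clusters, Ndufs3 stood at 5.42 log2 CPM per kb, Ndufs1, the largest of them, at 5.76, and Ndufv1, which binds NADH and the flavin, at 6.20. The 29 accessory subunits, which surround and stabilise the core, ranged over 4.49 log2 units, and Ndufb10 was the highest nuclear gene of the complex (6.85). The lowest were Ndufab1 (2.36), the mitochondrial acyl carrier protein, Ndufb2 (2.82) and Ndufb4 (3.17). Medians of core and accessory genes were close, at 5.76 and 5.98.

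In complex II, succinate dehydrogenase, Sdha, the flavoprotein that oxidises succinate, was the highest (7.20 log2 CPM per kb). It was followed by Sdhb (6.43), the iron-sulfur subunit, and by the membrane anchors Sdhd (5.96) and Sdhc (4.26). The proteins of all 4 are held in equal number in the complex, yet their transcripts spanned 2.94 log2 units. In complex III, the cytochrome bc1 complex, the highest nuclear gene was Uqcrh (7.59), the hinge protein. Its nuclear catalytic subunits Cyc1 (6.39), the cytochrome c1, and Uqcrfs1 (6.11), the Rieske protein, stood below the 6.83 of Uqcrc1, a large structural subunit.

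Complex IV, cytochrome c oxidase, held 4 of the highest nuclear levels: Cox8a (8.88 log2 CPM per kb), Cox4i1 (8.68), Cox6a1 (8.40) and Ndufa4 (8.05), which was first assigned to complex I and is a complex IV subunit. The range of its 11 usual nuclear subunits was wide, because Cox7c stood at 2.27. In complex V, the F1 head, where ATP is made, was led by Atp5b (9.06), the highest nuclear member, and Atp5a1 (8.39), with Atp5c1 (7.30), the main part of the central shaft, next and Atp5e (6.77) and Atp5d (6.62) below. The 4 genes of the peripheral stalk, which holds the head still, lay within 0.29 log2 units of each other, from Atp5h (6.34) to Atp5f1 (6.64).

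The c ring, the rotor of the ATP synthase, is made of many copies of 1 protein that 3 genes encode with the same mature sequence. Atp5g3 stood at 7.79 log2 CPM per kb, Atp5g1 at 2.37 and Atp5g2 at -0.01. Atp5g3 was thus 43.1-fold above Atp5g1 and 223-fold above Atp5g2. Both values have a limit. Before scaling by length, Atp5g3 was 6.60-fold above Atp5g1, whose principal transcript is long (4715 bases). Of Atp5g2, 86.9% of the stretches also occur in Gm10175, a transcribed pseudogene on chromosome 7, whereas Atp5g3 shared none with an annotated gene.

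All 6 nuclear subunit genes under 3 log2 CPM per kb had one of 2 features. Over 50% of stretches were shared with other genes, mostly processed pseudogenes, for Atp5g2 (86.9%), Atp5l (63.4%, level 1.86), a membrane subunit of the ATP synthase, and Cox7c (50.4%, level 2.27). They were the only nuclear members above that share. Principal transcripts longer than 3 kb were listed for Atp5g1 (4715 bases), Ndufb2 (4371 bases) and Ndufab1 (3479 bases), against a median of 863 bases over the 76 genes. Only 1 other gene had such a length (Sdhc, 3171 bases, level 4.26). Before scaling by length, Atp5g1, Ndufb2 and Ndufab1 stood between 4.16 and 4.95 log2 CPM. Atp5g1 and Ndufab1 also shared 7.63% and 10.9% of their stretches with genes elsewhere, led by processed pseudogenes. Ndufb2 shared none. Ndufb4, just above the limit at 3.17, had 35.2% of its stretches shared; the limit was set after the values were seen. Neither the handling of shared reads nor the length of the transcripts present in the tissue was tested.

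Of the 120 members, 82 had no stretch shared with a gene elsewhere, and 62 of the 76 nuclear subunit genes had at most 10%. These 62 had a median of 6.43 log2 CPM per kb, the 11 genes with over 10 to 50% shared had 6.04, and the 3 with over 50% had 1.86. The Spearman rho was -0.36 over the 76 genes and 0.05 over all 120 members, a description across genes of 1 pooled tissue. Overlapping genes were counted apart: 24 members shared stretches with a gene that overlaps them, and 65 shared none of either kind.

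**Figure D3:**
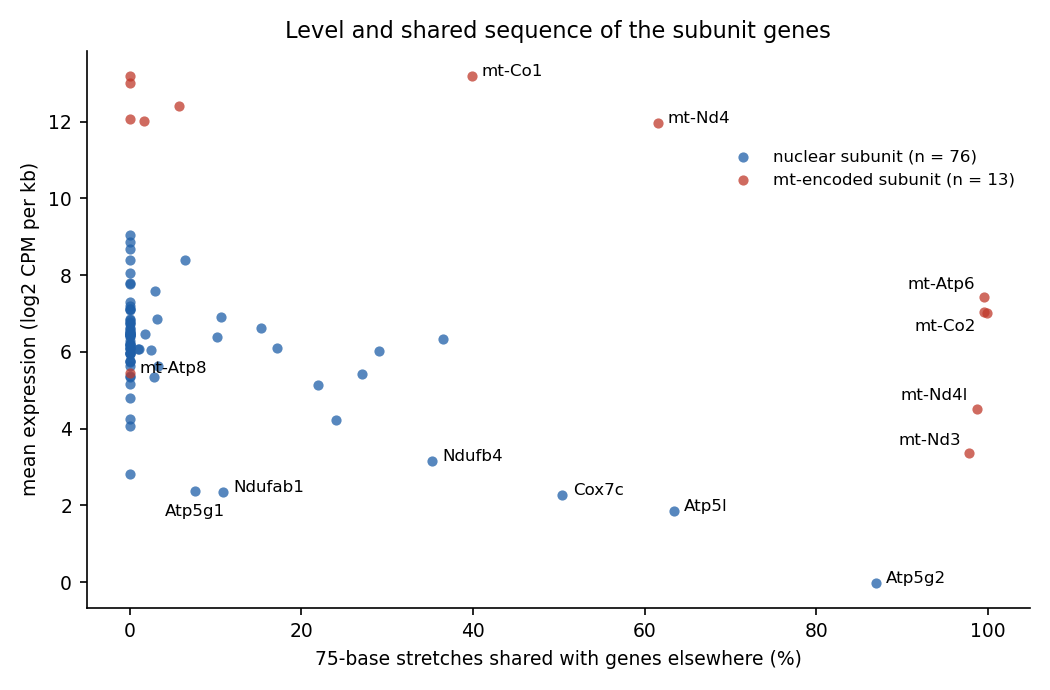
Percent of 75-base stretches shared with genes elsewhere (x axis) against mean expression in log2 CPM per kb (y axis) for the 76 nuclear subunit genes (blue) and the 13 mt genes (red), 1 point per gene. The nuclear genes with over 50% shared (Cox7c, Atp5l and Atp5g2) lie at 2.27 or lower, while mt-Nd4 (61.5%) lies at 11.97.

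Several complex IV subunits exist as a common form and a form known from heart, muscle, lung or testis, and the common form was the higher one in each pair but one. Cox4i1 stood 456-fold above Cox4i2, the lung form, and Cox8a stood 327-fold above Cox8b, a heart and muscle form. Ndufa4 was 124-fold above Ndufa4l2, a relative known for its response to low oxygen. Cox6a1 was 97-fold above Cox6a2, the heart and muscle form, and Cox7a2 was 67.3-fold above Cox7a1, likewise a heart and muscle form. Cox6b1 was 63.3-fold above Cox6b2, a testis form. The low partners lay between -0.95 and 1.24 log2 CPM before scaling, so the folds rest on levels of a few CPM at most.

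In complex I the copies lay closer: Ndufa11 was 7.41-fold above Ndufa11b and Ndufs6 2.17-fold above Ndufs6b. Both copies, of 424 and 348 bases, are annotated as processed pseudogenes. The exception in complex IV was Cox6c2, which stood at 6.91 log2 CPM per kb beside 6.90 for Cox6c, a ratio of Cox6c to Cox6c2 of 0.993. GENCODE M21 lists Cox6c2 as a processed pseudogene of 231 bases on chromosome 12, and 45.2% of its stretches also occur in Cox6c. Before scaling, the longer Cox6c was higher (6.47 against 4.80 log2 CPM). How the counting divided reads between them was not tested, and both levels are uncertain.

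**Figure D4:**
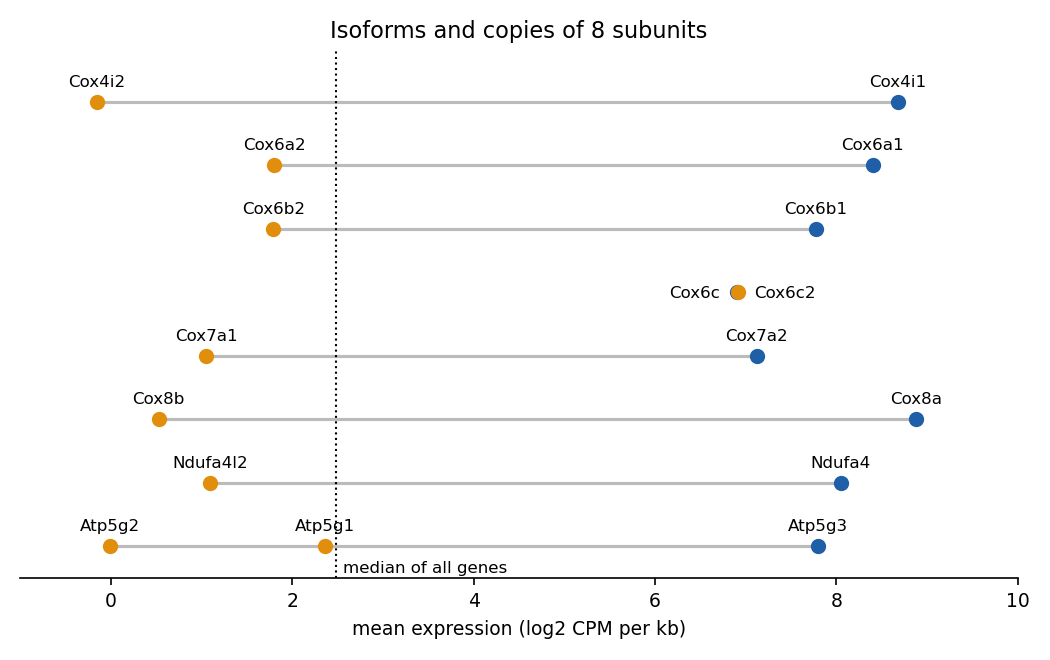
Mean expression in log2 CPM per kb (x axis) of the isoforms or copies of 8 subunits, 1 row per subunit. Blue points are the common form (Atp5g3 for the c ring) and orange points its counterparts, the grey line joins them, and the dotted line is the median of all genes (2.48); 6 of the 7 pairs lie far apart, and Cox6c and Cox6c2 coincide.

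Assembly factors were below the subunits they help to place, by less before scaling by length. Unscaled, the median was 3.97 log2 CPM for the 20 factors and 5.95 for the 76 subunit genes. Per length, the medians of the factors were 3.78 log2 CPM per kb for 8 of complex I, 2.75 for 8 of complex IV and 2.72 for 4 of complex II. The highest was Cox14 (5.40), which acts early in the making of mt-Co1, and the lowest was Cox16 (-0.46). The low factors Cox16, Sdhaf1 (0.95) and Cox11 (1.43) had 88.5%, 68.7% and 47.1% of their stretches in common with an overlapping gene. Cox17 (0.97), which was lower than Cox11, had only 5.06%, and Sdhaf3 (1.70) had none. The part of such overlap in the levels was not tested. Without Cox16 and Sdhaf1 the median of the assembly factors was 3.22. The remaining nuclear members were Cox7a2l (5.52), which helps to join complexes III and IV into supercomplexes, and Atp5s (3.34).

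Genes of the pathway outside the symbol rule had levels close to those of the assembly factors. Of 31 further assembly and carrier genes, 29 were in the table, with a median of 3.26 log2 CPM per kb. The highest were Atpif1 (7.19), the inhibitor of the ATP synthase, and Higd2a (6.27), a complex IV assembly factor. Cycs, the mobile electron carrier cytochrome c, stood at 1.87, and at 3.51 log2 CPM before scaling by length. Shared stretches were not counted for these 29 genes, so the level of Cycs is uncertain. The 17 regulators of mitochondrial DNA and of nuclear respiratory genes had a median of 2.38 and reached 4.35 for Lrpprc, which stabilises mt messenger RNA. Tfam, which packages and transcribes mitochondrial DNA, stood at 3.03, Ppargc1a, a coactivator of mitochondrial genes, at 3.46, and Nrf1 at 3.01.

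The promoters of nuclear members were searched for 4 motifs: those of NRF1, ETS and YY1, known from such genes, and the TATA box. The search used windows of 250 bases before to 50 after the start (RefSeq, GRCm38.p6), on both strands and in any window of a gene. Windows were found for 83 of the 107 nuclear members and 27025 genes in all. The NRF1 motif GCGCATGCG was in 10 of 83 members (12.05%), against 1.95% of all genes. The ETS motif CCGGAAG, which GABP can bind, was in 25 (30.1%, against 9.93%), and the YY1 motif AAGATGGC in 11 (13.3%, against 3.19%). The ETS share was 52.9% of 17 assembly factors and 25.8% of 62 subunit genes. All genes here means every gene with a window, whether or not it had a level in the vHPC. The TATA box TATAAA was in 8 members (9.64%, against 15.7%). Subunit genes with the NRF1 motif were Atp5g2, Atp5k, Atp5l, Cox6a1, Ndufa11, Ndufa8, Uqcr11 and Uqcrc1, and assembly factors with it were Ndufaf4 and Ndufaf5. Among them, Atp5g2 (-0.01 log2 CPM per kb) and Atp5l (1.86) had the lowest levels of all 76 subunit genes.

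The levels of the subunit genes differed little by motif. With the NRF1 motif the median was 6.64 log2 CPM per kb (8 genes) and without it 6.19 (54 genes). With the ETS motif it was 6.46 (16 genes) and without it 6.11 (46 genes), and with the YY1 motif it was 5.76 (9 genes) and without it 6.28 (53 genes). A match of letters is not a bound site, and binding was not measured.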

How the data were processed

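RNA of the vHPC was made into stranded libraries and read from one end over 75 bases. The authors discarded low-quality reads, aligned with STAR to GRCm38, counted with featureCounts and fitted limma-voom; tool versions and the handling of multi-mapping reads: not given in the sources used here. Of the 2 deposited tables (17564 genes each), only the mean log2 CPM over libraries was used, which was identical in both. The other columns hold the authors' own comparisons of VEH with CORT (fold changes, standard errors, test statistics and p-values) and were not used, so the tests planned on them were not run. The number of reads counted per library is unknown.

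Identifiers were matched to GENCODE M21 (17551 of 17564). Length was that of the principal transcript (best APPRIS class, then coding, basic and longest), chosen after union exon lengths had been seen to give odd values. Shared 75-base stretches were counted on both strands, outside overlapping genes, with numba 0.67.0 and pandas 2.3.3 under Python 3.11.15, and tested on simulated sequences. Members, roles, lists and motifs were chosen with earlier results of these data known. Named were all mt genes, the highest gene per complex and the isoform pairs; further genes were chosen after their values were seen.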

Additional observations from a re-analysis of the deposited data

How the results depend on the processing

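Of 90 values of group medians and their differences under 9 alternatives chosen after seeing the data, 79 moved by at most 0.5 log2 units, and no difference changed sign. Some of the 90 could not move, because the alternative left the lengths and members of that group unchanged. The mt median, for example, was 11.97 in the main setting and with union exons as length. The count of 79 is therefore no measure of stability. With the union of all exons as length the median was 5.38 log2 CPM per kb for the nuclear subunits, 5.15 for complex I, 6.60 for complex IV and 5.21 for complex V, and the gap between mt and nuclear subunits was 6.59. With only stretches that were not shared as length (members with at least 100), the mt median was 12.86 over 8 genes and the gap 6.36. With means in place of medians, the mt level was 9.44, complex V 5.96 and the gap 3.41. With isoforms and copies included, the complex IV median was 6.44. Atp5l moved most among the genes examined, from 1.86 to -1.70 with union exons.

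No paired analysis was possible because the tables hold no column per library. For the same reason leaving out a replicate was not done. The alternatives planned for the CORT effects were not run, since they need columns of the authors' comparisons. Without the spread between libraries, differences between genes of like level are not distinguished here.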
